A study of Mus musculus with 28 samples.

Results

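Nascent transcription of 9 non-clustered protocadherin genes (Pcdh1, Pcdh7, Pcdh8, Pcdh9, Pcdh10, Pcdh17, Pcdh18, Pcdh19 and Pcdh20) was followed in mouse forebrain cultures that were silenced or made more active. The genes were taken by name as members of 1 family, with earlier results of these data known, and are 9 of the 22919 genes listed and of the 21192 with a test. All 9 passed the authors' filter on low counts in each of 7 comparisons. Averaged over control and Rai1 shRNA, silencing lowered 7 of the 9, where 17.5% of the 18241 genes in that test fell. In the same average, 7 of the 9 were higher under raised activity, where 22.4% of those genes rose. With control shRNA alone 5 of the 9 rose, where 17.4% of 16692 genes did, and Pcdh1 and Pcdh19 were called only with Rai1 shRNA. Averaged over both shRNAs, 5 (Pcdh7, Pcdh8, Pcdh9, Pcdh10 and Pcdh17) fell under silencing and rose under raised activity, as did 8.85% of the 18241 genes. None of the 9 passed the test for an effect of the Rai1 shRNA, and few genes of the whole series did. The share over all genes was 0.857% in vehicle, 0.0283% under silencing, 0.00944% under raised activity and 0.00548% averaged over treatments.

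Protocadherins form the largest group within the cadherin superfamily, the calcium-dependent adhesion proteins with repeated extracellular cadherin domains. The clustered genes lie in tandem arrays and give neurons their own surface identity, whereas the non-clustered genes are scattered and are expressed in patterns that differ between brain regions and neuron classes. They are sorted by their cytoplasmic tails into a δ1 subfamily (here Pcdh1, Pcdh7 and Pcdh9) and a δ2 subfamily (Pcdh8, Pcdh10, Pcdh17, Pcdh18 and Pcdh19), with Pcdh20 in neither. In forebrain neurons they are known for roles in axon growth and in the making, remodelling and removal of synapses.

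Transcription was read by Bru-seq, in which bromouridine taken up by living cells marks new RNA for capture with an antibody. CD1 mouse cortex and hippocampus from embryonic day 18 gave the cultures, which the labels describe as neurons, astrocytes and oligodendrocyte precursor cells, and each biological replicate pooled several embryos with a matched sex ratio. All cultures carried a lentivirus from day in vitro 14, which encoded an shRNA directed at Rai1, a chromatin-binding regulator of transcription (shRai1), or a control hairpin (shCtrl). On day 17 they received water as vehicle, 1 µM tetrodotoxin (TTX), a sodium channel blocker that stops action potentials, or 20 µM bicuculline (BIC), an antagonist of GABA-A receptors that raises network activity, for 4 hours, with 2 mM bromouridine in the last 20 minutes. The 16 libraries formed 6 groups of 3, except shCtrl with vehicle and shCtrl with BIC, which had 2 libraries each. By their labels, shCtrl with vehicle held replicates 1 and 2 and shCtrl with BIC held replicates 2 and 3. Differences between replicates within that comparison were not tested. The 12 ChIP-seq samples of the series were not analysed here.

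The values are the authors' summaries over libraries, so no value per library was used and the depth of single libraries is unknown. Differences are log2 changes with the standard error (SE) of the authors' model, which carries the spread between libraries, and a gene was called at an adjusted p under 0.05. Rai1 itself was not detectably lower in the nascent reads of the libraries labelled shRai1. For shRai1 against shCtrl, the authors' deposited tables gave Rai1 a log2 change of 0.16 in vehicle (SE 0.073, adjusted p 0.357), -0.12 in TTX (adjusted p 1.00) and 0.03 in BIC (adjusted p 1.00). An shRNA acts on finished RNA, and total RNA or protein of Rai1 was not measured in these files. The drugs were checked on 20 activity-regulated genes, all 20 of which fell under TTX averaged over the arms (median -2.17), while 15 rose and 3 fell under BIC (median 0.88). The 3 that fell under BIC were Egr3 (-1.84), Egr2 (-1.31) and Egr1 (-0.68).

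Defining markers of the labelled cell types were present. In shCtrl with vehicle, 12 neuron markers summed to 746 FPKM, 10 astrocyte markers to 374 and 10 oligodendrocyte-lineage markers to 205. FPKM is fragments per unit of gene length and of library depth, 1 pooled value per condition as the authors deposited it. Among the oligodendrocyte-lineage markers, Mog of mature oligodendrocytes was under 1 FPKM, while Mbp was at 18.5 and Cnp at 13.6. The 9 microglia markers summed to 22.1 FPKM, with Cx3cr1 at 14.7 and Csf1r at 1.95. Tmem119, C1qa, C1qb and C1qc were under 1, and 1 of these 4 was at 0. Of 12 endothelial, mural and meningeal markers, 11 were under 1 FPKM. Across vehicle, TTX and BIC in shCtrl the deposited neuron sum ranged from 677 to 746 FPKM, the astrocyte sum from 300.3 to 374, the oligodendrocyte-lineage sum from 179 to 205, the microglia sum from 22.1 to 32.3 and the endothelial, mural and meningeal sum from 4.70 to 7.29.

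The stretches upstream of the starts are shown first, because the genes moved with activity and a promoter is where activity-dependent factors such as CREB, AP-1, EGR, SRF and MEF2 can bind. The 250 bases before the RefSeq start (GRCm38.p6) were read for 8 of the 9 genes, all but Pcdh1. Both strands were searched for the core of the cAMP response element (CRE, TGACGT), an AP-1 site (TGANTCA), an EGR site (GCGNGGGCG), the CCAAT box (CCAAT), the TATA box (TATAAA), the CArG box bound by SRF and the MEF2 site. Printed here are the 5 genes that fell under TTX and rose under BIC, 5′ to 3′ on the gene's own strand, with every match in capitals. Pcdh7 lies at chr5:57717831-57718080 (plus strand), Pcdh8 at chr14:79771313-79771562 (minus), Pcdh9 at chr14:93890680-93890929 (minus), Pcdh10 at chr3:45378148-45378397 (plus) and Pcdh17 at chr14:84443313-84443562 (plus).
Pcdh7: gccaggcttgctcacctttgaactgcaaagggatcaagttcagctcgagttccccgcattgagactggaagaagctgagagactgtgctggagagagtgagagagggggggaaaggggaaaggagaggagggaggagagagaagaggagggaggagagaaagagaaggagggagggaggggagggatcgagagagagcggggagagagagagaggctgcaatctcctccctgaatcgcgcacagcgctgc
Pcdh8: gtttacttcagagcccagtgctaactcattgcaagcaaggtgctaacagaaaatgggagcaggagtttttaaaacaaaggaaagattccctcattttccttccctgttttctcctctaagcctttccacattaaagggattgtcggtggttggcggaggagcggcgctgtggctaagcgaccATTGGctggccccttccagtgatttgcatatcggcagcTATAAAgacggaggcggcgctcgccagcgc
Pcdh9: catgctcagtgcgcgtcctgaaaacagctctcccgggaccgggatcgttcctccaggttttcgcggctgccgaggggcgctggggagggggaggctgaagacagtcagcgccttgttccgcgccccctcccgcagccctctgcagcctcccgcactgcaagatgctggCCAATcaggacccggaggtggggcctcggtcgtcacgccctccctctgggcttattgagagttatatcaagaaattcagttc
Pcdh10: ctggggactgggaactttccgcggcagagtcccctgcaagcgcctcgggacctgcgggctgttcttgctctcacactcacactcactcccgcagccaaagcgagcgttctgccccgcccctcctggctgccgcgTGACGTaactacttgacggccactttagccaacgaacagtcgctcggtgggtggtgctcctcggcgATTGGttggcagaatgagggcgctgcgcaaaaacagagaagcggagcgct
Pcdh17: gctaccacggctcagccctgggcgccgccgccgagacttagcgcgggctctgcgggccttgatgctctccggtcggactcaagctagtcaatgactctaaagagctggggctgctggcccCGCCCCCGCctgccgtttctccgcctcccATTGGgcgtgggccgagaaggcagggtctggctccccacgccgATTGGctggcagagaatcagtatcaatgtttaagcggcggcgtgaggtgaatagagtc

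These windows share little beyond a CCAAT box, which 7 of the 8 matched genes held (all but Pcdh7), against 33.8% of 32851 windows of the same length over all genes. The CRE core was found once, in Pcdh10 (116 bases before the start, counted to the first base of the match), against 6.47% of all windows. An EGR site was found in Pcdh17 (130 bases before the start, against 4.70%), and a TATA box in Pcdh8 (30 bases before the start, against 12.4%). No window of the 8 genes held the AP-1 site (6.75% of all windows), the CArG box (1.47%) or the MEF2 site (1.69%) as searched. No match among the printed windows overlapped another. The windows ranged in base composition from 42.4% G and C in Pcdh20 to 69.2% in Pcdh19, against a median of 52.4% over all windows. A match is a string of letters and not a measured binding site, and sites farther away were not searched.

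The 9 genes differed widely in level and in length. Pcdh8, also called arcadlin, which interacts with N-cadherin and is known as an activity-induced gene of hippocampal neurons, had the highest level and the shortest interval. Per the authors' pooled FPKM for shCtrl, Pcdh8 stood at 64.5 in vehicle (deposited bounds 50.0 to 79.0), 31.5 with TTX (24.2 to 38.8) and 161 with BIC (124 to 199). These 3 intervals do not overlap. Pcdh10, which recruits the WAVE actin-regulatory complex and takes part in synapse removal, was second in vehicle at 22.9 FPKM (17.3 to 28.4), and at 18.6 in TTX and 28.9 in BIC. Pcdh1, a δ1 member also known from airway epithelium, followed at 21.3 FPKM in vehicle (16.2 to 26.4), 28.1 with TTX (21.6 to 34.7) and 17.4 with BIC (13.1 to 21.6). The bounds of Pcdh10 and Pcdh1 overlap in vehicle, and both lie below those of Pcdh8.

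The middle of the order of the authors' pooled values held 3 long genes. Pcdh7, also called NF-protocadherin and known from axon growth, was at 11.0 FPKM in vehicle (8.15 to 13.8), 6.53 with TTX (4.75 to 8.32) and 17.8 with BIC (13.6 to 21.9). Pcdh9, a δ1 gene expressed in cortical neurons, was at 8.53 FPKM in vehicle (6.34 to 10.7), 6.02 in TTX and 14.2 in BIC (10.8 to 17.6). Pcdh17, which acts in axon extension and in synapses of corticobasal ganglia circuits, was at 7.44 FPKM in vehicle (5.57 to 9.30), 6.65 in TTX and 26.1 in BIC (20.0 to 32.3). In vehicle the bounds of these 3 overlap with one another. In BIC the lower bound of Pcdh17 is above the upper bound of Pcdh9, so Pcdh17 stood above Pcdh9 there.

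By pooled FPKM in vehicle, the lowest levels were those of Pcdh19, Pcdh20 and Pcdh18. Pcdh19, the X-linked gene in which mutations cause an epilepsy that mainly affects females, was at 4.86 FPKM in vehicle (3.61 to 6.12), 4.39 in TTX and 5.60 in BIC. Pcdh20 was at 3.18 FPKM in vehicle (2.07 to 4.28), 1.55 in TTX and 2.74 in BIC. Pcdh18, which binds the reelin adaptor Dab1, was at 2.65 FPKM in vehicle (1.66 to 3.63), 1.82 in TTX and 2.76 in BIC. For these 3 genes the bounds of all treatments overlap. Between vehicle and TTX the bounds were apart for Pcdh8 alone of the 9, between vehicle and BIC for Pcdh8, Pcdh9 and Pcdh17, and between TTX and BIC for Pcdh1, Pcdh7, Pcdh8, Pcdh9 and Pcdh17. No share over all genes stands beside these counts, so they describe the 9 genes alone. The confidence level of the deposited bounds is not given in the sources used here.

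**Figure D1:**
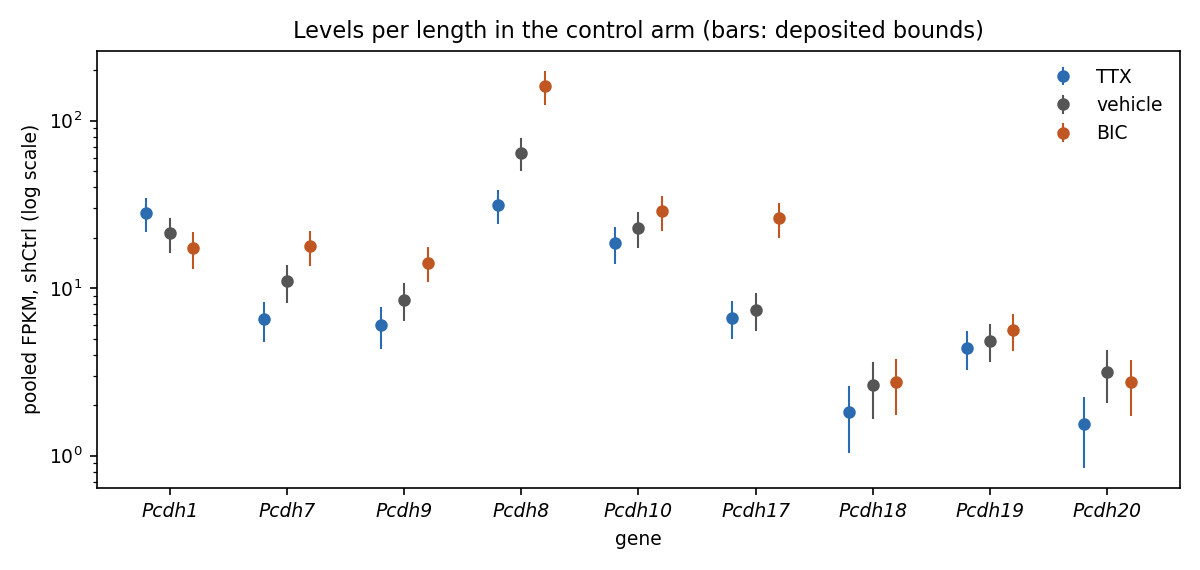
Pooled FPKM in shCtrl, as the authors deposited it, on a log axis for each of the 9 genes in TTX, vehicle and BIC, with bars for the deposited low and high bounds. Pcdh8 is the highest in all 3 treatments, at 31.5, 64.5 and 161, and Pcdh17 goes from 7.44 in vehicle to 26.1 in BIC.

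How many reads stand behind each level depends on gene length as well as on the level itself. In the coordinates of the FPKM table (mm9 per the submitters' processing notes), Pcdh9 spans 876970 bases on chromosome 14 from 93412919 to 94289888, and 93 listed genes are longer. Pcdh7 spans 414220 bases on chromosome 5 from 58109260 to 58523479. Both had large mean normalized counts over all libraries, 5257 for Pcdh9 and 5476 for Pcdh7. Pcdh8 spans only 4541 bases on chromosome 14 from 80166579 to 80171119, with a mean count of 1211. Of the other intervals, Pcdh19 (chromosome X, 130117400 to 130223532) had a mean count of 681, Pcdh17 (chromosome 14, 84843370 to 84936867) of 1857, Pcdh10 (chromosome 3, 45182320 to 45243231) of 961.7 and Pcdh1 (chromosome 18, 38356348 to 38369416) of 820.5. Pcdh18 (chromosome 3, 49547218 to 49561238) and Pcdh20 (chromosome 14, 88864554 to 88871203) rest on means of 85.8 and 50.5, and their errors below are the widest of the 9. Mean counts per kb of these intervals gave another order than pooled FPKM. Pcdh9 was the lowest at 5.99, below Pcdh18 (6.12), Pcdh19 (6.42) and Pcdh20 (7.59). Pcdh1 (62.8) stood above Pcdh10 (15.8), and Pcdh8 was the highest by either measure (267). The order of levels given above is therefore that of pooled FPKM alone. Chromosome 14 carries 4 of the 9 genes. The interval of Pcdh10 overlaps that of 1700027H10Rik (mean count 7.60) and that of Pcdh17 overlaps 9630013A20Rik (mean count 0.749), both far below the protocadherin.

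Silencing with TTX was associated with lower nascent transcription of most of the 9 genes in the control arm. By the authors' log2 change Pcdh8 fell the most, by 2.04-fold, and Pcdh1 was the 1 gene that rose, by 1.41-fold. By the log2 ratio of pooled FPKM, Pcdh8 and Pcdh20 both stood at -1.04, so no order between these 2 genes is given. In all, 6 fell, 1 rose and 2 did not pass, where 26.7% of the 15464 genes with an adjusted p were called in either direction (14.9% lower, 11.8% higher). The median log2 change of the 9 was -0.49, against 0.00 over all genes tested. Since the cultures are mixed, fewer cells of a type and less RNA per cell cannot be told apart.

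Among the δ2 genes under TTX in shCtrl, the authors' deposited table gave Pcdh8 a log2 change of -1.03 (SE 0.134, adjusted p 7.12e-13). Pcdh10 fell by 0.49 (SE 0.107, adjusted p 4.00e-05) and Pcdh17 by 0.43 (SE 0.124, adjusted p 0.00374) in the authors' deposited table. The log2 ratio of pooled FPKM was smaller for Pcdh10 (-0.30) and Pcdh17 (-0.16), with overlapping bounds. These 3 are the δ2 genes with the most reads per length. Pcdh18 had -0.38 (SE 0.216, adjusted p 0.194) and Pcdh19 had 0.06 (SE 0.125, adjusted p 0.797) in the authors' deposited table, and neither passed. Of the δ1 genes, the authors' deposited table gave a fall of Pcdh7 (-0.77, SE 0.128, adjusted p 4.33e-08), a fall of Pcdh9 (-0.51, SE 0.188, adjusted p 0.0261) and a rise of Pcdh1 (0.50, SE 0.109, adjusted p 5.11e-05). Pcdh20 fell by 0.92 in the authors' deposited table (SE 0.295, adjusted p 0.00998), from the lowest mean count of the 9. The subfamilies therefore did not separate by direction, since δ1 held genes on both sides.

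In shRai1, the TTX response had the same sign as in shCtrl for each of the 9 genes and fewer of them passed. Of the 9, 3 fell (Pcdh7, Pcdh8 and Pcdh18), 2 rose (Pcdh1 and Pcdh19) and 4 did not pass, against 30.5% of all genes called (16.8% lower, 13.7% higher). The authors' deposited table for shRai1 gave log2 changes of -0.73 for Pcdh8 (SE 0.119, adjusted p 1.62e-08), -0.60 for Pcdh7 (SE 0.114, adjusted p 1.37e-06) and 0.40 for Pcdh1 (SE 0.0958, adjusted p 0.000276). Pcdh19 rose by 0.40 (SE 0.111, adjusted p 0.00216) and Pcdh18 fell by 0.48 (SE 0.193, adjusted p 0.0430) in the authors' deposited table. Adjusted over all genes with a p-value, Pcdh18 had 0.0585 and no longer passed. Not called in the authors' deposited table were Pcdh9 at -0.30 (SE 0.168), Pcdh10 at -0.23 (adjusted p 0.0543), Pcdh17 at -0.14 (adjusted p 0.380) and Pcdh20 at -0.42 (SE 0.266, adjusted p 0.237). Pcdh10 passed when the adjustment covered only genes with a mean count of at least 50 (adjusted p 0.0459).

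Raised activity under BIC went with higher transcription of 5 genes in shCtrl, each of which had fallen under TTX in that arm. Pcdh17 rose by 4.39-fold in shCtrl, and Pcdh8, Pcdh7 and Pcdh9 rose by 2.48, 2.42 and 2.28-fold. Pcdh10 rose by 1.32-fold. Pcdh7 and Pcdh9 rose less by the log2 ratio of pooled FPKM, an alternative chosen after seeing the data (0.69 and 0.74, against 1.28 and 1.19), and the FPKM bounds of Pcdh7 overlap between vehicle and BIC. Of the 9 genes, 5 rose, 0 fell and 4 did not pass in shCtrl by the authors' DESeq2 test, where 34.4% of all 16692 genes with an adjusted p were called (17.4% higher, 17.0% lower). The count at an unadjusted p under 0.05 was also 5 of 9, where 41.5% of all genes had such a p.

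In shCtrl the authors' deposited table gave Pcdh17 a log2 change of 2.13 under BIC (SE 0.135, adjusted p 3.91e-54). Pcdh8 had 1.31 (SE 0.144, adjusted p 3.82e-18) and Pcdh10 had 0.40 (SE 0.117, adjusted p 0.00257) in the authors' deposited table. The δ1 genes Pcdh7 (1.28, SE 0.142, adjusted p 7.01e-18) and Pcdh9 (1.19, SE 0.206, adjusted p 8.02e-08) rose by similar amounts in the authors' deposited table, both of them among the longest of the 9. The other 4 did not pass, with Pcdh19 at 0.24 (SE 0.139, adjusted p 0.186), Pcdh1 at 0.15 (SE 0.122, adjusted p 0.381), Pcdh18 at 0.11 (SE 0.228, adjusted p 0.757) and Pcdh20 at -0.12 (SE 0.306, adjusted p 0.820) in the authors' deposited table. The ratio of the pooled FPKM went the other way for Pcdh1 under BIC (-0.29), so no direction is given for that gene in shCtrl.

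In shRai1, 8 of the 9 genes rose under BIC, 0 fell and Pcdh20 did not pass, against 42.5% of all 17510 genes called (21.3% in each direction). The authors' deposited table gave 2.38 for Pcdh17 (SE 0.107, adjusted p 1.81e-106), 1.68 for Pcdh8 (SE 0.115, adjusted p 1.84e-46) and 0.73 for Pcdh10 (SE 0.0927, adjusted p 2.77e-14). Pcdh7 stood at 1.41 (SE 0.113, adjusted p 2.13e-34) and Pcdh9 at 1.32 (SE 0.168, adjusted p 4.70e-14) in the authors' deposited table. Genes that had not passed in shCtrl did so here, Pcdh19 with 0.70 (SE 0.111, adjusted p 2.29e-09), Pcdh18 with 0.44 (SE 0.185, adjusted p 0.0413) and Pcdh1 with 0.24 (SE 0.0968, adjusted p 0.0328) in the authors' deposited table. This arm has 3 vehicle and 3 BIC libraries against 2 and 2 in shCtrl, and its errors were smaller for each of the 9 genes. Pcdh20 had -0.01 (SE 0.264, adjusted p 0.978) in the authors' deposited table.

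**Figure D2:**
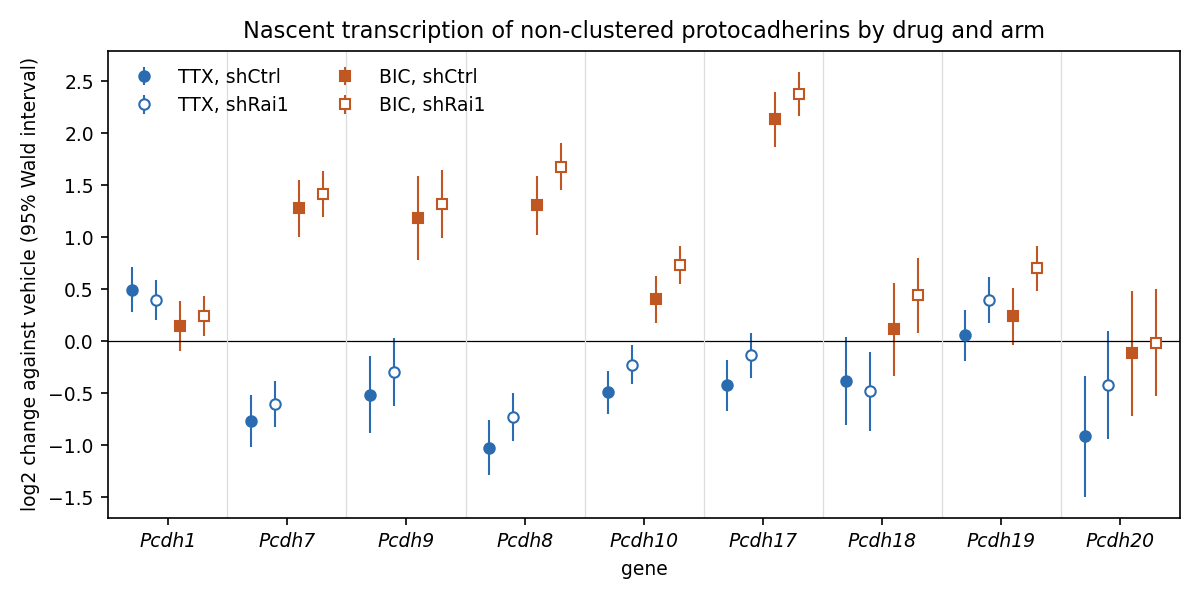
Log2 change against vehicle for each gene under TTX (circles) and BIC (squares), in shCtrl (filled) and shRai1 (open), with 95% Wald intervals. Blue circles lie below 0 and orange squares above 0 for Pcdh7, Pcdh9, Pcdh8, Pcdh10 and Pcdh17, while for Pcdh1 and Pcdh19 all 4 points lie above 0.

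Averaging the arms, which share no library, gives each drug response with a smaller error. Under TTX all 9 genes passed, 7 lower and 2 higher, where 33.1% of 18241 genes were called (17.5% lower, 15.5% higher). The falls ranged from -0.88 for Pcdh8 (SE 0.0897, adjusted p 4.29e-21) to -0.28 for Pcdh17 (SE 0.0830, adjusted p 0.00309). Pcdh1 rose by 0.45 (SE 0.0724, adjusted p 8.62e-09) and Pcdh19 by 0.23 (SE 0.0839, adjusted p 0.0226). The direction for Pcdh19 rests on shRai1, since in shCtrl its change was not called and its ratio of pooled FPKM was negative (-0.15). Under BIC 7 genes rose and 0 fell by the two-sided Wald test, where 46.0% were called (22.4% higher, 23.6% lower), and at an unadjusted p under 0.05 the same count of 7 was reached, where 50.7% of all genes had such a p. Pcdh17 rose by 2.26 (SE 0.0860, adjusted p 4.72e-149), or 4.78-fold, and ranked 43 of the 12333 genes whose mean count was 50 or more. Pcdh8 (1.49, SE 0.0922) ranked 198, Pcdh7 (1.34, SE 0.0906) 273 and Pcdh9 (1.25, SE 0.133) 336 from the highest. Pcdh10 (0.57, SE 0.0746), Pcdh19 (0.47, SE 0.0890) and Pcdh1 (0.19, SE 0.0779, adjusted p 0.0292) rose less. The direction for Pcdh1 rests on shRai1, since in shCtrl its change was not called and its ratio of pooled FPKM was negative (-0.29). Pcdh18 (0.28, SE 0.147, adjusted p 0.114) and Pcdh20 (-0.06, SE 0.202, adjusted p 0.843) did not pass.

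Read across both drugs, the averaged responses of the 9 genes fell into 3 patterns. Pcdh7, Pcdh8, Pcdh9, Pcdh10 and Pcdh17 fell under TTX and rose under BIC, as did 8.85% of the 18241 genes. Pcdh17 was the most lopsided of these, with a fall of 0.28 under TTX against a rise of 2.26 under BIC, and Pcdh10 the most even, with a fall of 0.36 against a rise of 0.57. In shRai1 alone Pcdh10 was not the most even, with -0.23 (not called) against 0.73 in the authors' deposited tables. Pcdh18 and Pcdh20, the genes with the fewest reads, fell under TTX (-0.43 and -0.67) and did not pass under BIC. Averaged over the arms, Pcdh1 and Pcdh19 were called higher under both drugs. Of these calls, those of Pcdh1 under BIC and of Pcdh19 under both drugs were made in shRai1 and not in shCtrl, where the pooled FPKM of Pcdh1 under BIC and of Pcdh19 under TTX went the other way, and only that of Pcdh1 under TTX was made in each arm. No interaction was called for either gene. Both drug responses of an arm were measured against the same vehicle libraries, so a vehicle value that is off moves both responses in the same direction.

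**Figure D3:**
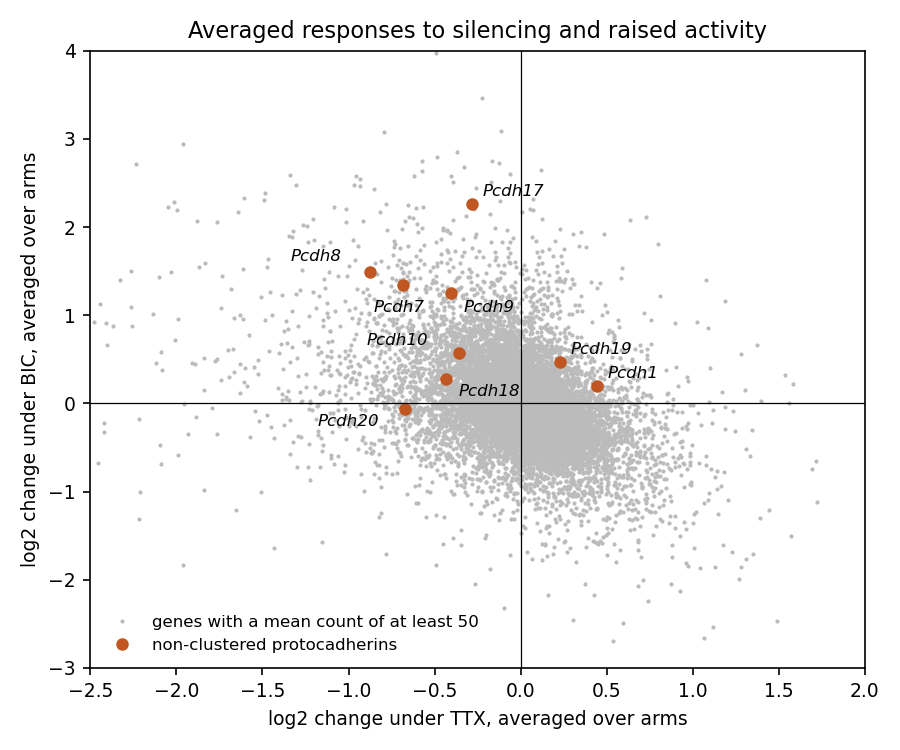
Log2 change under BIC against log2 change under TTX, each averaged over the arms, for genes whose mean normalized count was 50 or more (grey) and the 9 protocadherins (orange), with 20 of the 12333 genes outside the axes. Pcdh17, Pcdh8, Pcdh7, Pcdh9 and Pcdh10 lie in the upper left, and Pcdh1 and Pcdh19 in the upper right.

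The distance between the 2 drug states was taken as the BIC response minus the TTX response within an arm. Its SE, added in quadrature, is an upper bound because the vehicle libraries cancel, so the test is conservative. Pcdh17 differed by 2.56 in shCtrl (at most SE 0.183, adjusted p 2.83e-42) and 2.52 in shRai1 (SE 0.154, adjusted p 3.83e-58), or 5.90 and 5.73-fold higher in BIC than in TTX. By pooled FPKM in shCtrl the ratio for Pcdh17 was smaller, 3.92-fold, and below the 5.13-fold of Pcdh8. Pcdh8 differed by 2.33 and 2.41 (5.04 and 5.30-fold), Pcdh7 by 2.04 and 2.02, Pcdh9 by 1.70 and 1.62 and Pcdh10 by 0.90 and 0.96, all of them called in both arms. As log2 ratios of pooled FPKM in shCtrl, Pcdh7 (1.44), Pcdh9 (1.24) and Pcdh10 (0.64) also differed less, and the bounds of Pcdh10 overlap. In shCtrl these 5 of 9 were called, against 32.4% of all genes, and in shRai1 Pcdh18 (0.92, adjusted p 0.00203) made it 6 of 9, against 39.5%. Pcdh1 was the gene with a negative difference in both arms, -0.35 in shCtrl (adjusted p 0.0923) and -0.16 in shRai1 (adjusted p 0.422), and did not pass. Its pooled FPKM in shCtrl gave a larger difference, a log2 ratio of -0.70, with bounds that barely part (a lower bound of 21.628 in TTX and an upper bound of 21.619 in BIC). Pcdh19 (0.18 and 0.30) and Pcdh20 (0.80 and 0.41) did not pass in either arm. For Pcdh20 in shCtrl the 95% interval ran from -0.03 to 1.63, so a 2-fold difference was neither shown nor outside the interval. On simulated data with 200 of 18241 genes changed, this test recovered 17.5% of planted log2 differences of 0.5 in shCtrl and 65.5% of those of 1 in shRai1. Far larger shares of genes were called here, and the planted genes were drawn from all levels of expression. These recoveries are thus not the power of the test for the 9 genes. A gene that did not pass was not shown to be unchanged. In shRai1 the 95% intervals ran from -0.42 to 0.11 for Pcdh1, from -0.01 to 0.61 for Pcdh19 and from -0.32 to 1.15 for Pcdh20. Of these, only that of Pcdh20 held a difference of 1.

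No difference between the arms in the drug response of the 9 genes passed the two-sided Wald test on the difference itself. For TTX 0 of 9 were called, where 0.943% of all genes were, and 1 had an unadjusted p under 0.05, as had 9.05% of all genes. For BIC 0 of 9 were called, where 0.0219% of all genes were, and 3 had an unadjusted p under 0.05, as had 3.03% of all genes. Pcdh19 had the smallest p in both, with a difference (shRai1 minus shCtrl) of 0.34 for TTX (95% interval 0.01 to 0.67, p 0.0437, adjusted p 0.526) and 0.46 for BIC (0.11 to 0.81, p 0.00936, adjusted p 1.00). Pcdh10 had 0.33 for BIC (p 0.0254) and Pcdh8 0.37 (p 0.0452), both with an adjusted p of 1.00. The differences were positive for 7 of 9 genes under TTX and 9 of 9 under BIC, but both rest on the same 2 groups of vehicle libraries. The widest interval, that of Pcdh20, ran from -0.29 to 1.27 for TTX and from -0.69 to 0.89 for BIC.

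Without a drug, shRai1 cultures had lower values than shCtrl cultures for 8 of the 9 genes, none of which passed. In vehicle 0 of 9 were called by the authors' DESeq2 test, against 0.857% of all genes, and 3 had an unadjusted p under 0.05, as had 11.1% of all genes. The authors' deposited table gave Pcdh19 a log2 change of -0.37 (SE 0.126, p 0.00305, adjusted p 0.154), Pcdh17 -0.27 (p 0.0295, adjusted p 0.376) and Pcdh10 -0.26 (p 0.0136, adjusted p 0.281). The median of the 9 was -0.21, against -0.01 over all genes. In TTX 0 of 9 were called (0.0283% of all genes) and 0 had an unadjusted p under 0.05 (3.30% of all genes), with 5 positive and 4 negative values and a median of 0.01. In BIC 0 of 9 were called (0.00944% of all genes) and 0 had an unadjusted p under 0.05 (2.93% of all genes), with 6 positive and 3 negative values and a median of 0.07. Averaged over treatments, 0 of 9 were called by the two-sided Wald test, against 0.00548% of all genes, and 0 had an unadjusted p under 0.05 (4.12% of all genes), with values from -0.11 for Pcdh19 to 0.13 for Pcdh20. For Pcdh8 the 95% interval of that average ran from -0.13 to 0.15, and for Pcdh20 from -0.19 to 0.45.

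Other genes moved in the same vehicle comparison. Of the 20 activity-regulated genes 5 fell in shRai1 with vehicle (median -0.45), and of the 8 oligodendrocyte-lineage markers with an adjusted p 4 fell (median -0.67 over all 10). The TTX response was higher in shRai1 than in shCtrl for 6 of the 10 markers (median difference 0.93) and for 4 of the 20 activity-regulated genes (median difference 0.51). Their part in the protocadherin values was not tested. The difference between arms in the BIC response was called for 0 genes of either list by the two-sided Wald test. Its median was 0.13 for the markers and 0.52 for the activity-regulated genes. For shRai1 against shCtrl within BIC, 1 of the 10 markers fell and 0 rose (median -0.41). Within TTX, 1 of the 10 rose and 0 fell (median 0.24).

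**Figure D4:**
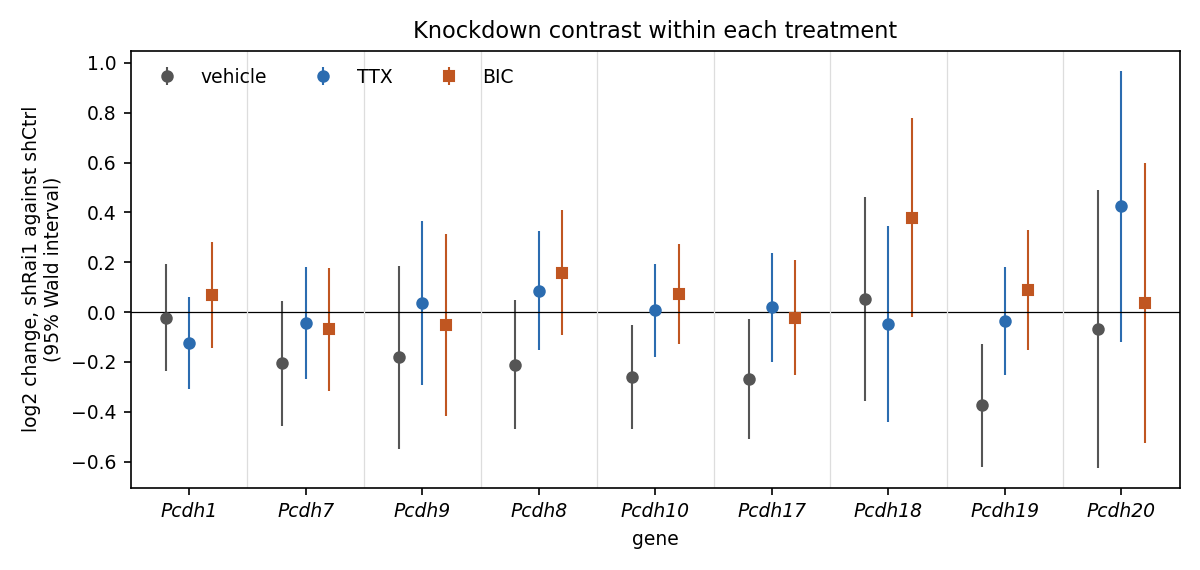
Log2 change of shRai1 against shCtrl for each gene in vehicle (grey circles), TTX (blue circles) and BIC (orange squares), with 95% Wald intervals. The vehicle points lie below 0 for 8 of the 9 genes and the intervals of Pcdh10, Pcdh17 and Pcdh19 in vehicle exclude 0 before adjustment, while no interval in TTX or BIC does.

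The genes with the most similar pattern were sought over the 4 drug responses of 12333 genes, as the smallest Euclidean distance, for the member with the largest summed response (Pcdh17, 5.08) and the smallest (Pcdh1, 1.28). Nearest to Pcdh17 were Tsc22d2 (distance 0.213), Rgs6 (0.324), Tnfaip6 (0.344), Sertm1 (0.401) and Magoh (0.427). In shCtrl the authors' deposited tables gave Tsc22d2, a gene of the TSC22 leucine zipper family, -0.42 under TTX and 2.05 under BIC. With each change divided by its SE, only Sertm1 of these 5 stayed among the nearest 5. Nearest to Pcdh1 were Asnsd1 (0.106), Colgalt2 (0.120), Clmn (0.133), Fancd2 (0.141) and Mettl13 (0.153), of which Colgalt2 and Clmn stayed. The 4 responses share vehicle libraries within each arm, and a short distance says nothing of shared control.

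Of the other non-clustered genes, Pcdh11x, the X-linked δ1 relative of Pcdh9, rose under BIC as well. Its log2 change was -0.57 under TTX averaged over arms (SE 0.0786, adjusted p 5.49e-12) and 2.63 under BIC (SE 0.0813, adjusted p 1.35e-226), from a pooled 1.83 FPKM in shCtrl with vehicle, 1.06 in TTX and 5.06 in BIC. By that log2 change it stood above Pcdh17 (2.26), but by the log2 ratio of pooled FPKM in shCtrl below it (1.47 against 1.81), so no order between these genes is given. Pcdh15, a component of the tip links of inner ear hair cells, fell under BIC (-0.38, SE 0.0823, adjusted p 1.49e-05) and did not pass under TTX (-0.16, adjusted p 0.0970). Its pooled FPKM in shCtrl went the other way under BIC, from 4.33 with vehicle to 4.75. Pcdh12, known from endothelium, was at 0.0809 FPKM with a mean count of 2.43 and did not pass.

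Genes whose products work with protocadherins showed no common direction. Of 18 partners and regulators, 2 rose and 3 fell under TTX averaged over arms (median -0.06) and 8 rose and 6 fell under BIC (median -0.08). Over all 18241 genes, 15.5% rose and 17.5% fell under TTX, and 22.4% rose and 23.6% fell under BIC. These shares also stand beside the cadherin, catenin and marker lists that follow. Fmr1, whose protein FMRP is needed for the removal of synapses through Pcdh10, fell under TTX (-0.40, SE 0.0901) and rose under BIC (0.77, SE 0.0926). Nckap1, the WAVE complex subunit that binds Pcdh10, did likewise (-0.34, SE 0.0600, and 0.48, SE 0.0638). Of other WAVE complex genes, Cyfip1 was higher under TTX (0.25) and Wasf1 lower under BIC (-0.49), each opposite in sign to Nckap1. Cyfip2 fell under TTX (-0.15), as Nckap1 did. Its BIC responses were -0.14 in shCtrl and -0.18 in shRai1 in the authors' deposited tables. Taok2, the kinase that acts with Pcdh8 on N-cadherin, rose under TTX (0.23, SE 0.0622) and fell under BIC (-0.58, SE 0.0682), opposite in sign to Pcdh8. Of the MEF2 factors, Mef2c rose (0.75, SE 0.141) and Mef2d fell (-0.48, SE 0.0721) under BIC. The pooled FPKM in shCtrl rose less for 2 of these genes under BIC. It went from 20.7 with vehicle to 21.5 for Nckap1 and from 32.0 to 35.0 for Mef2c.

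The classical and related cadherins were split as well. Of 18, 4 rose and 7 fell under TTX (median -0.10) and 7 rose and 4 fell under BIC (median 0.01). Cdh6 fell by 0.98 and rose by 0.96, and Cdh9 fell by 0.36 and rose by 0.80 under TTX and BIC. Cdh20 had -0.60 under TTX and rose by 0.59 under BIC. Cdh3 had 0.77 under TTX and fell under BIC (-0.73), at a pooled level under 1 FPKM. Cdh4 rose under TTX (0.35), Cdh13 had 0.26 under TTX, and Cdh22 (-0.72) and Cdh7 (-0.64) fell under BIC. For 3 of these genes called under TTX the pooled FPKM in shCtrl went the other way, from 4.66 with vehicle to 4.98 in TTX for Cdh20, from 0.651 to 0.593 for Cdh3 and from 22.0 to 21.2 for Cdh13. Of 7 catenins, which link classical cadherins but not protocadherins to actin, 0 rose and 2 fell under TTX (Ctnnd1 -0.51 and Ctnna3 -0.27), and 0 rose and 4 fell under BIC, among them Jup (-0.58), Ctnnd1 (-0.38) and Ctnna1 (-0.22). Here too the pooled FPKM in shCtrl went the other way for Ctnna3 under TTX (0.389 with vehicle, 0.894 in TTX) and for Ctnnd1 under BIC (23.0 with vehicle, 26.8 in BIC).

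Neuron markers also moved with the drugs, so their values stand beside those of the protocadherins. Of 12, 2 rose and 4 fell under TTX (median 0.00) and 7 rose and 4 fell under BIC (median 0.54). The GABA-synthesis genes Gad1 and Gad2 fell under TTX (-0.96 and -0.69) and rose under BIC (0.79 and 1.54). Genes of excitatory neurons were split, since Neurod2 rose under TTX (0.80) and fell under BIC (-0.83), Slc17a7 fell under BIC (-0.60) and Slc17a6 rose under BIC (1.13). Of the 10 astrocyte markers 0 rose and 3 fell under TTX and 1 rose and 3 fell under BIC, and of the 10 oligodendrocyte-lineage markers 2 rose and 1 fell under TTX and 0 rose and 2 fell under BIC. Of the 8 microglia markers tested (of 9), 0 were called under TTX and 2 rose under BIC. Of the 9 endothelial, mural and meningeal markers tested (of 12), 1 rose under TTX, and 1 rose and 2 fell under BIC. Their part in the protocadherin responses was not tested.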

How the data were processed

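The authors processed the reads, and the work here began from their tables. Per the submitters' processing notes the tools were TopHat2 2.1.0, Bowtie2 2.2.6 and DESeq2 and the build mm9, with no role given for each. Reads were stranded and single-end, per the labels' protocols. The 7 deposited comparison tables list a mean normalized count (a signal averaged over libraries), a log2 fold change with its SE, a Wald score and p-values before and after adjustment, as their headers name them. The deposited p-values differed from the normal distribution of the deposited score by at most 8.94e-09. Per the file headers, the deposited FPKM (over full gene length, per the file name) is 1 value for each condition, pooled over replicates, with a low and a high bound.

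The plan allowed for counts per library. With summaries only, the authors' tests were used as deposited. Where a gene column is missing (shRai1 against shCtrl in vehicle), 20107 genes were named by their unique mean count, with log2 changes closing to within 1e-09. FPKM columns of the knockdown arm did not follow their names (r across genes of the ratio to vehicle with the log2 change 0.261 for BIC and -0.630 for TTX, against 0.755 and 0.726 in shCtrl) and served only in the mean over 6 columns. Combined contrasts (averages, differences between arms, BIC minus TTX) were computed from the deposited log2 changes, with errors added in quadrature. They were tested two-sided (Wald), and p was adjusted by Benjamini-Hochberg over 18241 named genes at or above a mean of 0.1 FPKM. On simulated data with 200 of 18241 genes changed, the script recovered 69% of planted log2 differences of 0.5 in the averaged TTX response, but 17.5% of those of 0.5 in BIC minus TTX in shCtrl and 65.5% of those of 1 in shRai1, whose errors are upper bounds. Analyses used numpy 2.4.6, pandas 2.3.3 and scipy 1.17.1.

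Replicates are separate pools of embryos, per the labels. The 9 members and the gene lists were chosen with earlier results of these data known. Named genes were all 9 members, Rai1, at most 3 called rises and 3 called falls per list and drug, and the 5 nearest neighbours of 2 members. Single genes of lists were chosen by size, so their values are a description. Upstream windows came from RefSeq (GRCm38.p6), by symbol, with coordinates never moved between builds. Alternatives tried were the threshold (0.01 and 0.1), the genes in the adjustment, centring, and the ratio of pooled FPKM, the last chosen after seeing the data.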

Additional observations from a re-analysis of the deposited data

Results flagged for a closer look

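Pcdh11x, a gene outside the 9, was the 1 non-clustered protocadherin whose drug response differed between the arms by a test of the difference. The TTX response of the shRai1 arm exceeded that of shCtrl by 0.59 on the log2 scale (SE 0.157, p 0.000194, adjusted p 0.0283 by the two-sided Wald test), from -0.87 in shCtrl to -0.28 in shRai1 in the authors' deposited tables. The corresponding difference for BIC was 0.31 (SE 0.163, adjusted p 1.00) and did not pass. For TTX itself, the authors' deposited table gave Pcdh11x in shRai1 against shCtrl 0.22 (SE 0.106), and for vehicle -0.37 (SE 0.116), and neither passed.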

How the results depend on the processing

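No count of called members moved past 1.5 times its value under another threshold, another set of genes in the adjustment or centring on the median. Over these settings 4 to 6 of 9 were called for TTX in shRai1, 6 to 7 for TTX in shCtrl, 5 for BIC in shCtrl, 6 to 8 for BIC in shRai1, 7 to 9 and 6 to 7 for the averaged TTX and BIC responses, and 0 for every knockdown and difference between arms. The share of all genes called was taken only at the main setting, so these ranges describe the 9 genes alone. Of 126 results for single members, 7 lost their call at a threshold of 0.01 and 2 gained one at 0.1. Two-sided adjusted p ranged from 0.0362 to 0.0585 for Pcdh18 and from 0.0459 to 0.0738 for Pcdh10, both under TTX in shRai1. Centring turned Pcdh20 under BIC in shRai1 to 0.019. As log2 ratios of pooled FPKM in shCtrl, 11 of 18 responses moved by less than 1 SE, 5 moved by more (under TTX Pcdh10 to -0.30 and Pcdh17 to -0.16, under BIC Pcdh7 to 0.69, Pcdh9 to 0.74 and Pcdh17 to 1.81), and 2 changed sign, Pcdh19 under TTX (-0.15) and Pcdh1 under BIC (-0.29). For BIC minus TTX in shCtrl, 4 of 9 moved by less than 1 SE, and Pcdh1 (-0.70), Pcdh7 (1.44), Pcdh9 (1.24), Pcdh10 (0.64) and Pcdh17 (1.97) by more, with no change of sign. The cause was not tested. Over all genes that ratio differed from the log2 change by -0.46 to 0.45 for TTX and -0.59 to 0.63 for BIC (5th to 95th percentile). No paired analysis was possible because the tables hold no value per library, and for the same reason no replicate could be left out. With 2 or 3 libraries a group and unknown depth, small changes of Pcdh18 and Pcdh20 (mean counts 85.8 and 50.5) could not be resolved.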
